A study of Mus musculus with 15 samples.

Results

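Regulators of G protein signaling (RGS) were examined in RAW 264.7 cells, a mouse macrophage line, after exposure to silica nanoparticles. The genes were 9 members of the family, Rgs1, Rgs2, Rgs3, Rgs10, Rgs12, Rgs14, Rgs16, Rgs18 and Rgs19, among 57186 genes in the deposited count table, and they were found by matching their symbols to Ensembl identifiers. The set was chosen by the measured level of Rgs16, which was low in MSNP-treated cells relative to the nontreated controls, so that contrast is described here for these 9 genes without p-values. The cells were treated for 6 h with nonporous SNP100 at 50 µg/mL, nonporous SNP50 at 25 µg/mL, mesoporous MSNP at 200 µg/mL or hollow mesoporous HMSNP at 200 µg/mL, and the nontreated controls received no particles. The nominal diameters were 50 nm for SNP50 and 100 nm for the other particles. Each of the 5 groups had 3 libraries of one cell line grown in RPMI medium with serum, and the labels do not say whether these came from separate cultures, so the p-values measure the spread between libraries, which may be technical. Library names share a prefix within each group and differ between groups, so a batch under that prefix cannot be told apart from the treatment.

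RGS proteins end signals from G protein-coupled receptors. An activated receptor loads GTP onto a G alpha subunit, which separates from its beta and gamma partners, and an RGS protein speeds the hydrolysis of that GTP so that the subunits reassemble and the signal stops. In macrophages such receptors detect chemokines, complement fragments, nucleotides, prostaglandins and lipids, and the small RGS proteins are known for being induced or repressed themselves as cells are activated. Rgs1, Rgs2, Rgs3, Rgs16 and Rgs18 belong to the R4 subfamily, Rgs10, Rgs12 and Rgs14 to the R12 subfamily, and Rgs19 (also called GAIP) to the RZ subfamily.

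Total counts per library lay between 29369934 and 42617812. Levels are given as CPM, the read count scaled by the TMM-adjusted total of its library. Calls rest on the Benjamini-Hochberg adjusted p of edgeR's quasi-likelihood test, taken over 19839 genes with a threshold of 0.05. The 7 macrophage markers checked (such as Csf1r and Cd68) were all above 1 CPM on average, with a summed level between 15200 and 19200 CPM in the controls and between 12900 and 13800 CPM in MSNP-treated cells, which did not overlap, and the part of this in the results below was not tested. The markers did not move together. From the controls to MSNP the mean of Lyz2 went from 12180 to 9308 CPM and that of Csf1r from 2798 to 1789 CPM, while Cd68 went from 957 to 1536 CPM, and Adgre1 (134 and 137 CPM) and Ptprc (153 and 167 CPM) were not lower with MSNP. Summed fibroblast markers reached at most 0.0889 CPM, with 3 of 5 genes at 0 in every library, summed epithelial markers 0.0296 CPM, with 2 of 4 at 0, and summed lymphocyte markers 0.136 CPM, with 1 of 5 at 0. In bulk RNA, fewer cells with a transcript and less transcript per cell cannot be told apart. The controls differed by transcript length, and Control replicate 3 stood furthest apart. Its median log2 difference from the other controls was 0.61 in the shortest decile of 10652 genes and -0.60 in the longest. Control replicate 1 had -0.23 and 0.16 in these deciles and Control replicate 2 had -0.38 and 0.42. Both of these were set against controls that include replicate 3. The treated libraries, each set against its own group, had values from -0.12 to 0.14 in these deciles.

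Rgs18 had too few counts for a precise comparison, with 9 to 33 per library, and Rgs12 was low throughout, with 54 to 93. Rgs16 fell to 17, 23 and 15 counts in the MSNP-treated libraries, and the other 6 genes had 273 counts or more in every library. Every one of the 9 passed the filter of 10 counts summed over the libraries. Of 15 other RGS family and partner genes, 6 had no count in any library (Rgs5, Rgs6, Rgs7, Rgs17, Rgs21 and Rgs22), Rgs4 and Rgs7bp had fewer than 10 in all, and 5 of the 7 that were tested had at most 11 counts in every library. Rgs9 had at most 25 counts except in Control replicate 1, where it had 86. Rgs11 was the exception, with a mean of 19.6 CPM over the 15 libraries, but it shares 138 exonic bases with Arhgdig and 39 with Fam234a on the opposite strand. Its replicates ranged from 12.5 to 25.6 CPM within the HMSNP-treated group alone, and in edgeR its adjusted p against the controls was 0.997 for SNP100, 0.698 for SNP50, 0.667 for MSNP and 0.896 for HMSNP.

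Corrected for length as CPM per kilobase of exon, the controls had the highest level for Rgs19, 37.3 ± 3.21 (SD, n = 3), followed by 27.4 ± 8.5 for Rgs10 and 26.9 ± 4.14 for Rgs2. These last 2 did not differ beyond their spread. Rgs16 followed with 7.09 ± 0.35 CPM per kilobase, Rgs14 with 2.82 ± 0.235, Rgs1 with 2.0 ± 0.152 and Rgs3 with 1.46 ± 0.0297. The length used is the union of all annotated exons, so this order depends on the annotation. For Rgs1 the union, 6947 bases, equals the whole span of the gene, so its level per kilobase and its rank may be too low. Rgs12 and Rgs18 were lowest, at 0.252 ± 0.0637 and 0.197 ± 0.0538 CPM per kilobase, a difference smaller than the SD of Rgs12. In MSNP-treated cells Rgs16 had 0.23 ± 0.038 CPM per kilobase and so lay in the range of Rgs12 and Rgs18, while Rgs1 had 5.2 ± 0.508.

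**Figure D1:**
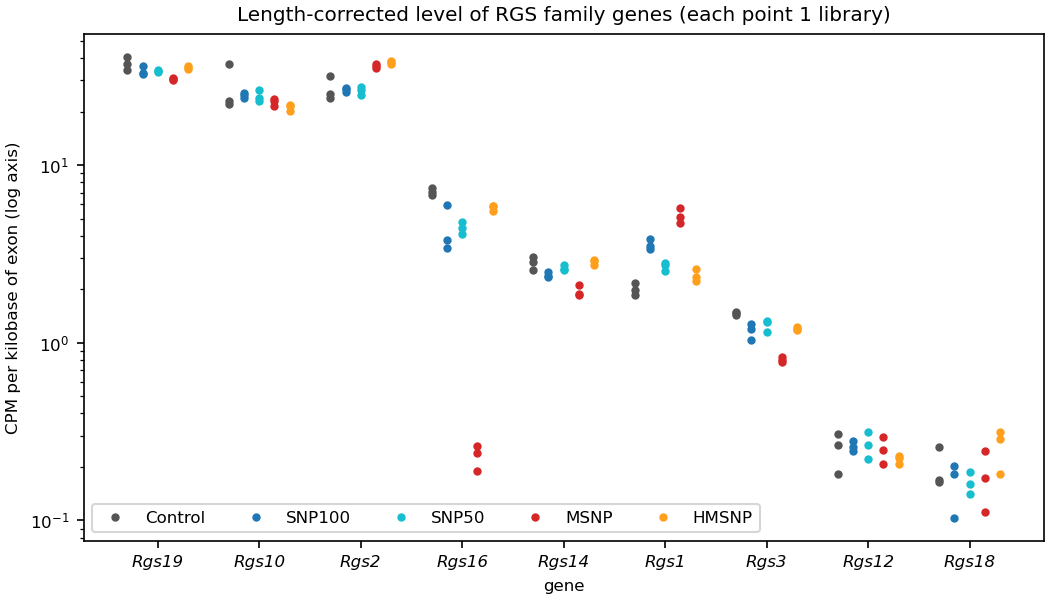
Length-corrected level (CPM per kilobase of exon, log axis) of the 9 RGS genes, ordered by their mean in the controls, with 1 point for each of the 15 libraries colored by group. Rgs19, Rgs10 and Rgs2 form the upper range, and Rgs16 falls to the range of Rgs12 and Rgs18 in the MSNP-treated libraries.

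Rgs16 and Rgs1, both R4 proteins that act on G alpha i subunits, and Rgs2, which acts mainly on G alpha q, showed 3 different patterns over the treated groups. All 3 genes are on chromosome 1. Rgs16 lies at chr1:153616091-153621228 (GRCm39, plus strand), and Rgs8 ends 40021 bases before it. Rgs16 shares 440 exonic bases with Gm28513, an antisense transcript with 4 counts in all. Rgs1 (chr1:144118034-144124980) and Rgs2 (chr1:143875076-143879899), both on the minus strand, lie with Rgs13, Rgs21 and Rgs18 in a stretch of 776.1 kilobases. Rgs2 shares 411 exonic bases with Gm41964 on the opposite strand, which was not analysed here. The 250 bases before the start of the canonical transcript are shown for these 3 genes because their patterns differed, read from the GRCm39 genome with GENCODE vM39 starts, in the direction of transcription, with matches to the motifs below in capitals:
Rgs16, chr1:153615841-153616090, plus strand: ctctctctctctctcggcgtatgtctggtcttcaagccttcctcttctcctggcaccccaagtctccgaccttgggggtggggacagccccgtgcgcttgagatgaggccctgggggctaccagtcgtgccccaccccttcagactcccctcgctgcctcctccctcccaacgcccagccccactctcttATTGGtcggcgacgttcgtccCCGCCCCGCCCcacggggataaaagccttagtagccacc
Rgs1, chr1:144124981-144125230, minus strand: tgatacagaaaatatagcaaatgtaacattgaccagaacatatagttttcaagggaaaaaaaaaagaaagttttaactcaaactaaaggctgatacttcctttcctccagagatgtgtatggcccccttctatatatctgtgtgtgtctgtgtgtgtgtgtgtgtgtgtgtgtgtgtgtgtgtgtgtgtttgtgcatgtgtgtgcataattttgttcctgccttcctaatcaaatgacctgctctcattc
Rgs2, chr1:143879900-143880149, minus strand: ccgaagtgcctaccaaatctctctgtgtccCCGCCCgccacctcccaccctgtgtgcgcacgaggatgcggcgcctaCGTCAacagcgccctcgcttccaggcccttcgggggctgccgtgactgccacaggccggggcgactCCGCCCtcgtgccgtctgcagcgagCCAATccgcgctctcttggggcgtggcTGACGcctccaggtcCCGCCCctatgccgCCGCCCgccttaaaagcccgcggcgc

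The stretch before Rgs1 had 38.4% G and C, against 64.8% before Rgs16 and 71.2% before Rgs2. On both strands these stretches were searched for the cyclic AMP response element TGACGTCA, its shorter core TGACG, the AP-1 site TGANTCA, a lysosomal-type E-box TCACGTGA, an NF-kB site, a TATA box TATAAA, the CCAAT box CCAAT and the GC box GGGCGG. Rgs16 held 1 CCAAT box and 2 overlapping GC boxes, Rgs2 held 1 CCAAT box, 4 GC boxes and 2 such cores, and none of these letters was in the Rgs1 window, which says nothing of the factors. Matches are a description of the letters only. Of 21770 stretches of the same length before protein-coding genes, 36.5% held a CCAAT box, 36.3% a GC box and 18% a TGACG core. The full cyclic AMP element was found in 1.69% of them, the AP-1 site in 6.17%, the E-box in 0.753%, the NF-kB site in 0.423% and the TATA box in 11.9%. The TATA box, 3 GC boxes and 1 GC box were found before Rgs3, Rgs12 and Rgs19, in that order, and the other 3 genes (Rgs10, Rgs14 and Rgs18) had no match.

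Rgs16 was lower in every treated library than in every control library, by very different amounts. In the controls it was 15.9, 16.6 and 17.6 CPM in replicates 1 to 3. In MSNP-treated cells it was 0.562, 0.621 and 0.445 CPM, a log2 fold change of -4.93 (standard error 0.218), which leaves 0.0327 of the control level. This is the difference for which the gene was chosen, and it is given as a description. HMSNP-treated cells, which received the same dose by mass of a particle of the same nominal diameter, had 13.1, 13.95 and 13.8 CPM, or 24.9 times the MSNP level, and no library of one porous group came near the other. The study describes HMSNP as very low in density and distinct in surface composition. The porous particles were thus not matched in these traits.

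The nonporous particles took Rgs16 to intermediate levels. SNP100-treated cells had 8.98, 8.06 and 14.1 CPM, and SNP50-treated cells 11.2, 9.64 and 10.5 CPM. The log2 fold change against the controls was -0.69 for SNP100 (standard error 0.156, adjusted p = 0.0552 in edgeR's quasi-likelihood test), which did not pass the threshold. For SNP50 it was -0.68 (standard error 0.157, adjusted p = 0.0488 in edgeR), which passed. The ranges of the nonporous groups overlap, and opposite sides of the threshold do not show a difference between them. For HMSNP the log2 fold change was -0.30 (95% interval -0.62 to 0.03, adjusted p = 0.248 in edgeR). SNP100 replicate 3 was the high value in its group, and without it the SNP100 change was -0.97 with an adjusted p of 0.00175 in edgeR, while without Control replicate 3 it was -0.66 with 0.0178. DESeq2 also called it (adjusted p = 0.00506). The SNP100 change was not called in 13 of the 15 edgeR fits that each left out 1 library, with adjusted p up to 0.274. Nor was it called in edgeR fitted to the 6 libraries compared (adjusted p = 0.836). The SNP50 call was lost in 12 of the 15 edgeR fits that each left out 1 library, with adjusted p between 0.00358 and 0.208 over all 15. Among those fits it held only without SNP100 replicate 2, SNP100 replicate 3 or Control replicate 3, and it was not made in edgeR fitted to the 6 libraries compared (adjusted p = 0.34). By mean, Rgs16 thus ran from the controls through HMSNP and then SNP50 and SNP100, which overlapped, down to MSNP. HMSNP also overlapped SNP100 through replicate 3 of the latter.

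**Figure D2:**
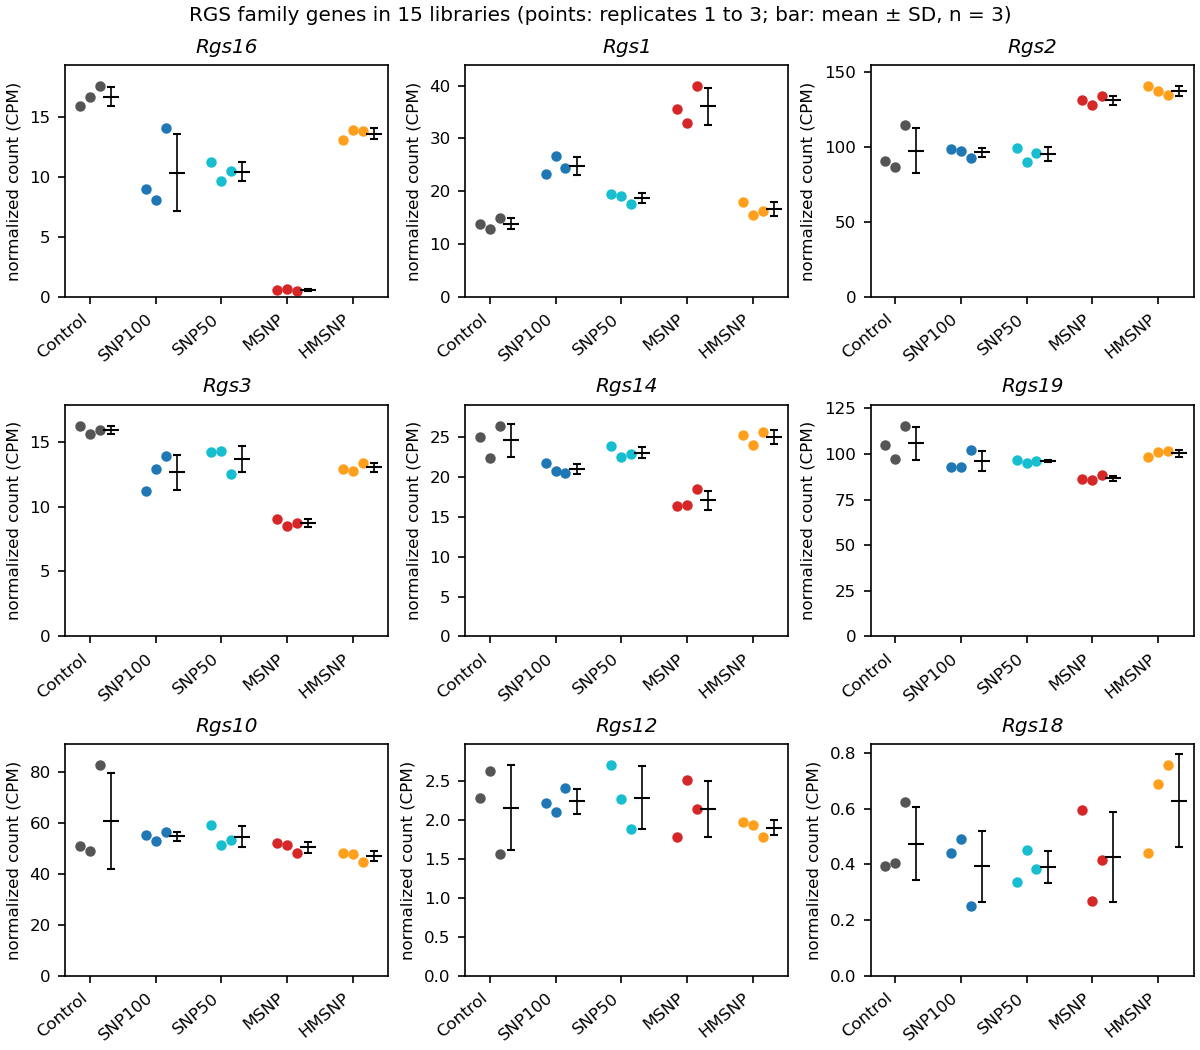
Normalized counts (CPM, axes from 0) of the 9 RGS genes in each of the 15 libraries, with 3 points per group and the mean ± SD beside them. Rgs16 lies between 0.445 and 0.621 CPM in the MSNP-treated libraries and between 15.9 and 17.6 CPM in the controls, while Rgs1 is highest in MSNP and Rgs2 is high in both porous groups.

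Rgs1, which restrains chemokine-driven migration of leukocytes, had the reverse order of group means. Its level was 13.7, 12.9 and 15.02 CPM in the controls and 35.5, 32.9 and 39.9 CPM in MSNP-treated cells, a log2 fold change of 1.38 (standard error 0.0938). SNP100-treated cells had 23.3, 26.7 and 24.4 CPM and SNP50-treated cells 19.5, 19.0 and 17.6 CPM. All treated libraries were above the highest control, and the MSNP, SNP100 and SNP50 ranges were separate from one another. Rgs1 rose with SNP100 by 0.83 on the log2 scale (standard error 0.0935, adjusted p = 0.000684 in edgeR). It rose with SNP50 by 0.43 (standard error 0.0941, adjusted p = 0.0392 in edgeR), a call that was lost in 8 of the 15 fits that left out 1 library, namely without SNP100 replicate 3, each SNP50 library, HMSNP replicates 2 and 3, and Control replicates 1 and 2, with adjusted p up to 0.148. In HMSNP-treated cells it was 18.01, 15.5 and 16.3 CPM, with a log2 fold change of 0.26 (95% interval 0.06 to 0.46, adjusted p = 0.122 in edgeR) that passed without Control replicate 3 (0.32, adjusted p = 0.0341). DESeq2 called this HMSNP change (adjusted p = 0.0481), and edgeR fitted to the 6 libraries compared did not (adjusted p = 0.469). When edgeR was fitted to the 6 libraries compared, neither nonporous call was made (adjusted p = 0.276 for SNP100 and 0.587 for SNP50). The porous particles differed directly. Rgs1 was lower with HMSNP than with MSNP with a log2 difference of -1.12 (standard error 0.0927, adjusted p = 3.14e-07 in edgeR), although this contrast shares its MSNP libraries with the one that singled out Rgs16.

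Rgs2 separated the porous groups, both at 200 µg/mL, from the nonporous groups at 50 and 25 µg/mL. Porosity and dose cannot be told apart in this split. Control libraries had 90.8, 87.0 and 115 CPM, SNP100-treated cells 98.6, 97.5 and 92.9 CPM, and SNP50-treated cells 99.5, 90.0 and 96.1 CPM. MSNP-treated cells had 131, 128 and 134 CPM, and HMSNP-treated cells 141, 137 and 135 CPM. Every library of both porous groups was above every other library, Control replicate 3 included. In HMSNP-treated cells Rgs2 rose by 0.49 on the log2 scale (standard error 0.0877, adjusted p = 0.0038 in edgeR), with the call kept in each of the 15 fits that left out 1 library but not when edgeR was fitted to those 6 libraries alone (adjusted p = 0.241). The change with MSNP was 0.43 (standard error 0.0877). Between HMSNP and MSNP the log2 difference was 0.07 (95% interval -0.12 to 0.25, adjusted p = 0.695 in edgeR). Against the controls the values for SNP100 and SNP50 were -0.02 (95% interval -0.21 to 0.17) and -0.03 (-0.22 to 0.15).

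Rgs3, a further R4 member with the longest exon sequence of the 9 genes, was below the controls in all 4 treated groups. It had 16.2, 15.6 and 15.9 CPM in the controls and 9.02, 8.47 and 8.71 CPM in MSNP-treated cells, a log2 fold change of -0.87 (standard error 0.0864). The other groups lay in between without reaching the controls, with 11.2 to 13.9 CPM for SNP100, 12.5 to 14.3 for SNP50 and 12.8 to 13.4 for HMSNP. Their log2 fold changes were -0.33, -0.22 and -0.29, with adjusted p of 0.0953, 0.292 and 0.0633 in edgeR, none of which passed. Without Control replicate 3 the adjusted p was 0.024 for SNP100 and 0.0349 for HMSNP, and without Control replicate 2 it was 0.0378 for HMSNP. DESeq2 called Rgs3 with SNP100 (adjusted p = 0.0181) and HMSNP (adjusted p = 0.0265). In edgeR fitted to the 6 libraries compared neither was called (adjusted p = 0.936 and 0.359). HMSNP was above MSNP by 0.58 (standard error 0.0866, adjusted p = 0.000147 in edgeR).

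Of the R12 genes, Rgs14, which also carries a motif that binds inactive G alpha subunits, was lowest in MSNP-treated cells. Its level there was 16.3, 16.5 and 18.5 CPM against 25.1, 22.4 and 26.4 CPM in the controls, with a log2 fold change of -0.53 (standard error 0.0771). It had 25.3, 24.0 and 25.7 CPM with HMSNP, a log2 fold change of 0.02 against the controls (95% interval -0.14 to 0.18, adjusted p = 0.896 in edgeR). HMSNP exceeded MSNP by 0.55 (standard error 0.077, adjusted p = 7.79e-05 in edgeR). SNP100-treated cells had 20.6 to 21.8 CPM, also below every control, and SNP50-treated cells 22.6 to 23.9 CPM, within the control range. Their log2 fold changes were -0.23 and -0.09 (adjusted p = 0.256 and 0.71 in edgeR).

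Rgs10, a short R12 protein abundant in macrophages and microglia, had 50.9, 49.1 and 82.8 CPM in the controls, so that Control replicate 3 was far above the others. Its exons span 2228 bases, the shortest of the 9 genes, and that library was high in short genes as a whole. The treated libraries lay between 44.7 and 59.3 CPM, and the log2 fold change with MSNP was -0.27 (standard error 0.148). None of the 3 tested changes passed (log2 fold changes of -0.15, -0.16 and -0.38 for SNP100, SNP50 and HMSNP, adjusted p = 0.741, 0.76 and 0.147 in edgeR). Without Control replicate 3 the values were 0.13, 0.12 and -0.09, and without Control replicate 2 the HMSNP value was -0.49 with an adjusted p of 0.0207. Rgs12, a large protein with several further domains, shares 467 exonic bases with Gm43791, which had no counts, and 132 with Gm72388, which was not analysed here. It had 1.56 to 2.63 CPM in the controls and 1.78 to 2.7 CPM in the treated libraries, and its adjusted p was at least 0.583 in the 3 tested comparisons with the controls.

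Rgs19, which binds G alpha i, had the highest level per length in the controls. Control libraries had 105, 97.4 and 115 CPM and MSNP-treated libraries 86.5, 85.6 and 88.3 CPM, a log2 fold change of -0.29 (standard error 0.0678). Those for SNP100, SNP50 and HMSNP were -0.14, -0.14 and -0.08 (adjusted p = 0.492, 0.437 and 0.501 in edgeR). HMSNP was above MSNP by 0.21 (standard error 0.0678, adjusted p = 0.0406 in edgeR), and that call was lost in 6 of the 15 fits that left out 1 library, namely without SNP50 replicate 2, without each MSNP library, and without HMSNP replicates 2 and 3, with adjusted p up to 0.119. SNP50-treated cells, at 95.3 to 96.8 CPM, also lay below the controls, while the SNP100 and HMSNP ranges overlapped them. Rgs19 shares 449 exonic bases with Tcea2 on the opposite strand, and the strand setting of the counting is not given in the sources used here. Tcea2 had 1713 counts over all libraries, fewer than Rgs19 had in any 1 of them. Rgs18, known from platelets, ranged from 0.249 to 0.756 CPM over all 15 libraries, with overlapping groups and wide 95% intervals such as -0.27 to 1.08 for HMSNP.

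**Figure D3:**
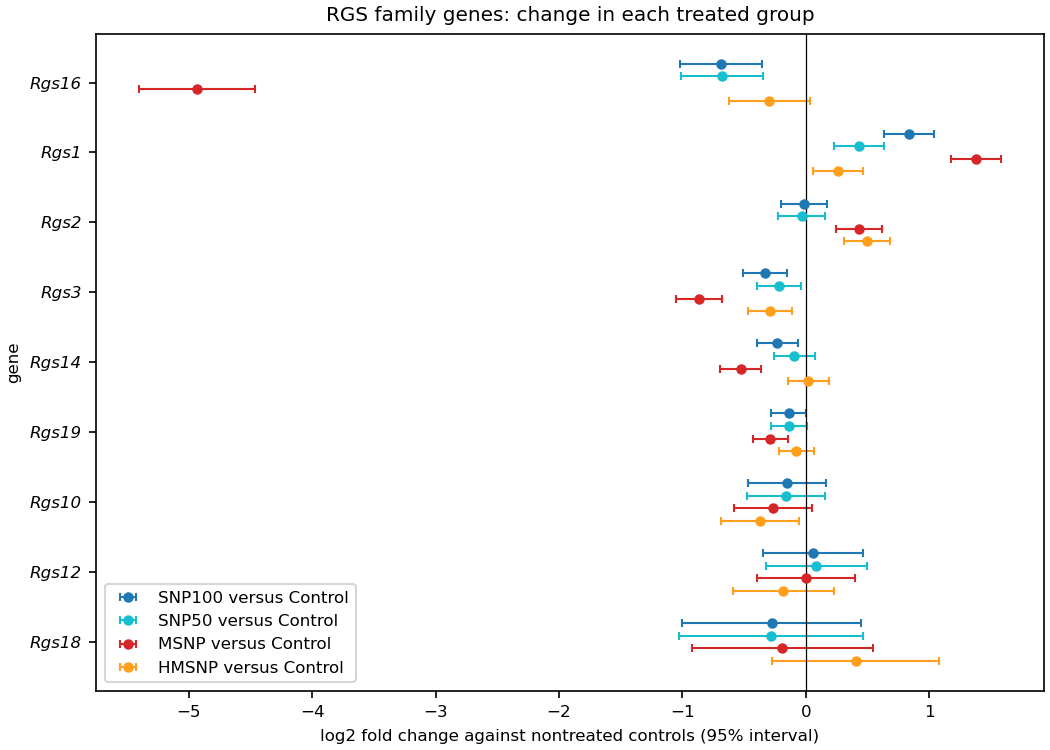
Log2 fold change of the 9 RGS genes in each treated group against the nontreated controls, with 95% intervals from edgeR's fit. Rgs16 with MSNP stands alone at -4.93, Rgs1 lies above 0 in all 4 groups, and the intervals of Rgs12 and Rgs18 include 0 throughout.

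Among the 9 genes, 1 was called with SNP100 (Rgs1, higher), where 0.912% of all tested genes were called, 0.509% higher and 0.403% lower. With SNP50 2 were called (Rgs1 higher, Rgs16 lower), against 1.41% of all genes, 0.454% higher and 0.958% lower. With HMSNP 1 was called (Rgs2, higher), against 5.16% of all genes, 2.46% higher and 2.7% lower. Genes with a mean of at least 1 CPM were called more often, at 1.54%, 2.36% and 8.04%, and 8 of the 9 are such genes. With MSNP 22.8% of all genes were called, 11.8% higher and 11% lower. The corresponding count of the 9 genes, 6 (2 higher, 4 lower), is a description from which nothing is read, since that contrast was used in the choice. Between HMSNP and MSNP, 20.2% of all genes were called, 9.22% higher and 11% lower, and 29.4% of genes with a mean of at least 1 CPM. In this contrast, which shares its MSNP libraries with the choice, 4 of the 8 genes besides Rgs16 were called, and 3 were higher with HMSNP (Rgs3, Rgs14 and Rgs19) and 1 lower (Rgs1). The median log2 fold change of the 9 genes was -0.15, -0.14, -0.27 and -0.08 for SNP100, SNP50, MSNP and HMSNP, and that of all tested genes -0.02, -0.00, -0.05 and -0.04. All comparisons with the controls share the same 3 control libraries.

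Rgs8, the neighbor of Rgs16, is named here after its values were seen. It had 7, 9 and 4 counts in the control libraries and 1, 0 and 1 in the MSNP-treated libraries, and 4 to 11 counts in every other library. With MSNP against the controls it was the 1 gene called of the 7 tested other RGS genes (14.3%), where 22.8% of all tested genes were called. That contrast was used in the choice, so the call is a description, and at such counts no fold is given. Rgs8 and Rgs16 are transcribed from the same strand, and a link between their levels was not tested. Rgsl1, on the other side of Rgs16, had at most 4 counts in any library.

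The patterns most like that of Rgs16 were ranked by Pearson correlation of log2 CPM over the 15 libraries among 11540 genes with a mean of at least 1 CPM. Fos, an immediate early transcription factor, came first (r = 0.995), followed by Epha2, an ephrin receptor (0.993), Alox5, the 5-lipoxygenase of leukotriene synthesis (0.992), Elk3, an ETS family factor (0.992), and Dusp6, a phosphatase of ERK kinases (0.991). The libraries fall into MSNP and the rest, which sets these values, and over the 12 libraries without MSNP the correlations were 0.909, 0.798, 0.737, 0.793 and 0.737. Those 12 libraries were part of the ranking that picked these genes, so the latter values are no separate check. Fos had a mean of 104 ± 7.97 CPM (SD, n = 3) in the controls, 82.4 ± 12.1 with SNP100, 85.5 ± 0.739 with SNP50, 10.1 ± 0.512 with MSNP and 103 ± 5.07 with HMSNP. Alox5 kept 71.6 ± 1.79 CPM with MSNP against 113 ± 3.95 in the controls, so that a like pattern did not mean a like size of change.

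**Figure D4:**
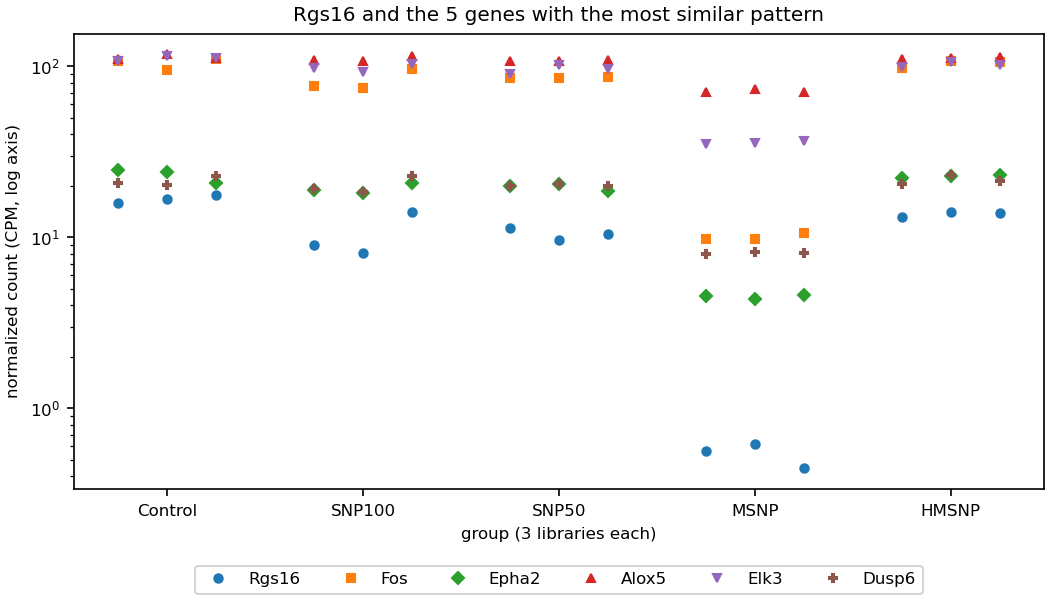
Normalized counts (CPM, log axis) of Rgs16 and the 5 genes with the highest correlation with it, in the 3 libraries of each group. All 6 genes are lowest in the MSNP-treated libraries, and the drop is largest for Rgs16.

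The rest of the pathway was described with lists of RGS-domain relatives, G protein subunits, modulators and arrestins, effectors, and receptors of macrophages, with 113 of 131 genes tested. In MSNP-treated cells 58 were called (20 higher, 38 lower), or 51.3%, in SNP100- and SNP50-treated cells 3 and 4 (2.65% and 3.54%), and in HMSNP-treated cells 16 (14 higher, 2 lower), or 14.2%. The shares over all tested genes are those given above, and of genes with a mean of at least 1 CPM 33.2% were called with MSNP. The lists were chosen with earlier results of these data known. Their shares with MSNP, and the MSNP p-values of the genes named below, are therefore a description. The median log2 fold change of the lists together was -0.01 for SNP100, -0.05 for SNP50, -0.12 for MSNP and 0.06 for HMSNP.

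All SNP100 and SNP50 calls of pathway genes named below were lost when edgeR was fitted to the 6 libraries compared, with adjusted p from 0.373 to 0.736, and so were those of Ccr2 (0.123), Ccrl2 (0.162) and Pde4b (0.0649) with HMSNP. The named MSNP calls were kept there, as were those of Cxcr4 and Adcy3 with HMSNP.

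Receptors held 26 of the 58 calls with MSNP and 10 of the 16 with HMSNP. Of 40 tested receptors, 9 were higher and 17 lower with MSNP, or 65% in all, with a median log2 fold change of -0.46. With HMSNP 9 were higher and 1 lower, or 25%, with a median of 0.16. Of all tested genes 22.8% were called with MSNP and 5.16% with HMSNP, the latter 2.46% higher and 2.7% lower. Among genes with a mean of at least 1 CPM the shares were 33.2% and 8.04%. C5ar1, the receptor for the complement fragment C5a, had 145 ± 18 CPM (SD, n = 3) in the controls and fell with SNP100 to 90.0 ± 4.63 (log2 fold change -0.69, adjusted p = 0.00127 in edgeR) and with SNP50 to 91.4 ± 0.43 (-0.67, adjusted p = 0.00167 in edgeR). The mean of C5ar1 was lowest with MSNP, at 48.6 ± 1.8 CPM, and was 117 ± 9.51 CPM with HMSNP. Among listed genes with a mean of at least 1 CPM, the 3 largest decreases with MSNP were those of C5ar2, the second C5a receptor (-3.05, adjusted p = 2.31e-09 in edgeR), Cx3cr1, the fractalkine receptor (-1.88), and Gpr84, a receptor for medium-chain fatty acids (-1.83). Cx3cr1 went from 806 ± 123 to 219 ± 6.11 CPM with MSNP and was at 813 ± 40.4 CPM with HMSNP. Ccrl2, an atypical receptor that binds chemerin, rose from 0.671 ± 0.0216 CPM to 6.57 ± 0.3 with MSNP (log2 fold change 3.28, adjusted p = 5.33e-10 in edgeR) and to 1.25 ± 0.129 with HMSNP (0.89, adjusted p = 0.00543 in edgeR). Its change with SNP100 was 0.80 (adjusted p = 0.0385 in edgeR), and that call was lost in 11 of 15 fits that left out 1 library, with adjusted p up to 0.236 without SNP100 replicate 2. Ptafr, the receptor of platelet-activating factor, rose with MSNP by 1.81 (adjusted p = 3.13e-07 in edgeR).

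Cxcr4, the receptor of the chemokine CXCL12, moved in opposite directions. It had 47.4 ± 4.69 CPM (SD, n = 3) in the controls, 66.5 ± 3.66 with SNP100 (log2 fold change 0.49, adjusted p = 0.0196 in edgeR) and 25.6 ± 2.43 with HMSNP (-0.89, adjusted p = 4.31e-05 in edgeR). The mean was also above the controls with SNP50 (60.3 ± 5.37 CPM) and was highest with MSNP (79.6 ± 3.23). Only the HMSNP mean lay below the controls, and its log2 difference from MSNP was -1.63 (adjusted p = 6.48e-09 in edgeR). The SNP100 call was lost without SNP100 replicate 1 or 2 or Control replicate 1, with adjusted p up to 0.132. Ccr2, the receptor of CCL2, rose with HMSNP by 0.87 (adjusted p = 0.00142 in edgeR). Gpr35 fell with SNP50 by 0.69 on the log2 scale (adjusted p = 0.029 in edgeR), as did Grk5, a kinase that phosphorylates active receptors, by 0.56 (adjusted p = 0.0488 in edgeR), and the calls were lost in 9 and 13 of the 15 fits that left out 1 library, among them those without any one SNP50 library, with adjusted p up to 0.148 for Gpr35 and 0.257 for Grk5.

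**Figure D5:**
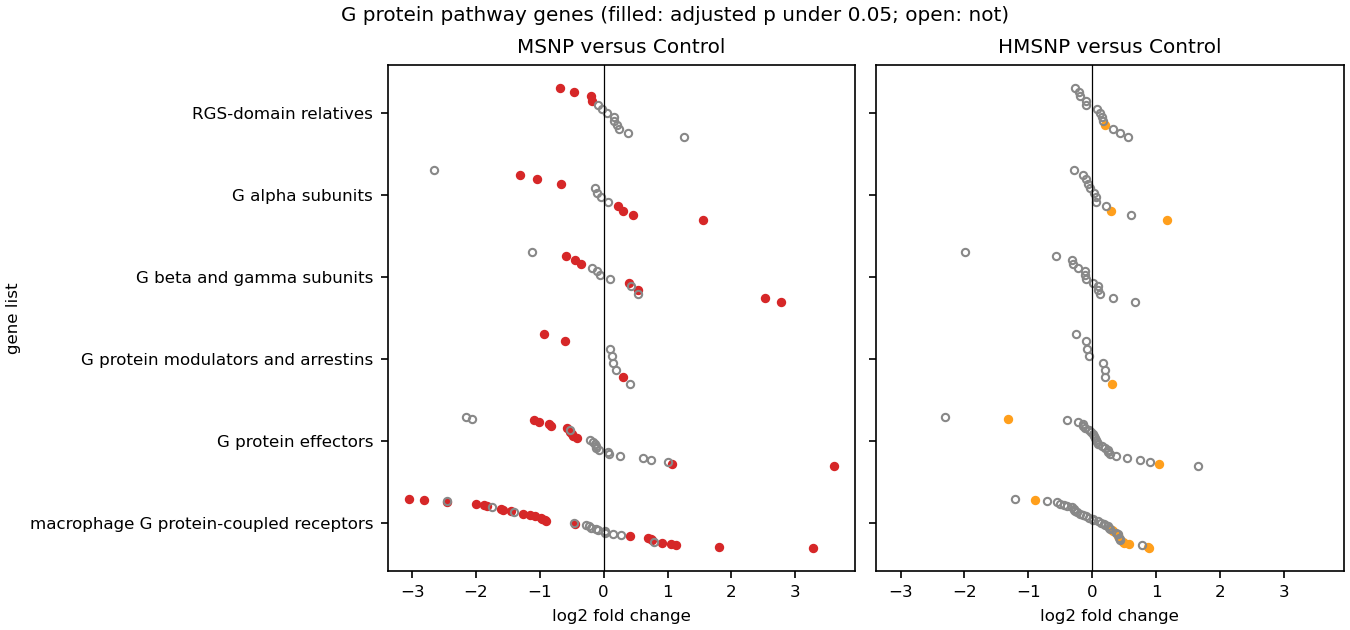
Log2 fold change of the tested G protein pathway genes by list in MSNP-treated (left) and HMSNP-treated cells (right) against the controls, with filled points for an adjusted p under 0.05. Receptors spread from -3.05 to 3.28 with MSNP, and with HMSNP the filled receptors are mostly above 0.

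The other lists are set beside the shares called among all genes, 22.8% with MSNP and 5.16% with HMSNP, and among genes with a mean of at least 1 CPM, 33.2% and 8.04%. Of 12 tested G alpha genes, 4 were higher and 3 lower with MSNP (58.3%), and 2 were higher with HMSNP (16.7%). Of 14 beta and gamma genes, 4 were higher and 3 lower with MSNP (50%). The gamma subunit gene Gng4 rose with MSNP from 2.42 ± 0.317 to 16.6 ± 0.389 CPM (SD, n = 3), with a log2 value of 2.78 (adjusted p = 7.51e-10 in edgeR), and had 2.22 ± 0.0995 CPM with HMSNP. Among 26 effectors, 2 were higher and 9 lower with MSNP (42.3%), and 1 was higher and 1 lower with HMSNP (7.69%). In HMSNP-treated cells Pde4b, a phosphodiesterase that degrades cyclic AMP, rose by 1.05 (standard error 0.144, adjusted p = 0.000514 in edgeR), and Adcy3, an adenylyl cyclase that makes it, fell by 1.32 on the log2 scale (adjusted p = 0.000293 in edgeR). Adcy3 was low, with 1.97 ± 0.194 CPM in the controls, 0.782 ± 0.103 with HMSNP and 0.913 ± 0.172 with MSNP. Adcy7, a more highly expressed adenylyl cyclase gene, had 561, 640 and 271 CPM in control replicates 1 to 3. Its exons span 11565 bases, and Control replicate 3 was low in long genes as a whole. Adcy7 had 488, 520 and 506 CPM with HMSNP, below the first 2 controls, and 339 ± 5.05 with MSNP. Cyclic AMP was not measured. Of 13 RGS-domain relatives, 4 were lower with MSNP (30.8%) and 1 higher with HMSNP (7.69%), and of 8 modulators and arrestins 1 was higher and 2 lower with MSNP (37.5%) and 1 was higher with HMSNP (12.5%).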

How the data were processed

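Gene expression was measured by RNA sequencing in 15 libraries of RAW 264.7 cells, 3 for each of 5 groups, at 6 h. Per the labels, the authors made directional poly(A) libraries, and their processing notes name cutadapt 1.16, STAR 2.7.9a, featureCounts 1.6.3 and the mouse genome GRCm39. The annotation release and strand setting are not given in the sources used here. The deposited table holds whole-number counts per gene and library, without normalization. Symbols, positions and exon lengths came from GENCODE vM39 on GRCm39, which held 56630 of 57186 identifiers. Groups and replicate numbers came from the sample titles, and doses from the study's methods.

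Genes with at least 10 counts in all (19839) were tested in R 4.3.3 with edgeR 4.0.16 (TMM, one model of all libraries, quasi-likelihood test, Benjamini-Hochberg adjustment, threshold 0.05), and standard errors and 95% intervals were derived from the F statistic. CPM per kilobase divides CPM by the union of exons. Precision is limited by 3 libraries a group and by counting error in genes such as Rgs18. The test was checked on simulated data with the same spread in all groups. It recovered 100 of 100 genes changed 4-fold and 94 of 100 changed 2-fold, with 20 false calls. For HMSNP, left unchanged there, it made 1 call. The wider spread of the controls was not simulated. Replicates differed by more than sampling noise (mean chi-square per gene from 4.87 to 15.5 in treated groups and 72.9 to 228 in the controls, where 1 is noise alone). Alternatives were DESeq2 1.42.0, RLE normalization, filterByExpr, no filter, the 6 libraries of a comparison, a replicate block, an offset for the trend with transcript length (lowess span 0.3) and leaving out each library. The offset together with leaving out Control replicate 3 was added after the data were seen, as were the CCAAT box, GC box and TGACG motifs. Named genes were the 9 members, other RGS genes reaching 1 CPM in a group, in each comparison with the controls the 3 highest and 3 lowest called pathway genes with a mean of at least 1 CPM, and the 5 genes most correlated with Rgs16 in log2 CPM (prior count 2). Adcy7 was named in addition, outside this rule. The members and lists were chosen with earlier results of these data known.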

Additional observations from a re-analysis of the deposited data

How the results depend on the processing

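Rgs16 with MSNP had log2 fold changes between -5.04 and -4.79 over the fits that left out 1 library. Over all alternatives, 1322 of 1470 recomputed changes of single genes kept their direction and side of the threshold, 90 lost and 20 gained a call, and 38 changed sign, all among changes that were not called. The counts rest on the controls and on the libraries that share the spread, and 3 libraries a group limit them. The cause of each change below was not tested.

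Genes called numbered 181, 280, 4527, 1024 and 4010 for SNP100, SNP50, MSNP, HMSNP and HMSNP versus MSNP. With the 6 libraries of each comparison they were 0, 1, 2257, 77 and 7142, with 0 RGS genes for SNP100, SNP50 and HMSNP and 0, 0, 36 and 2 pathway genes for SNP100, SNP50, MSNP and HMSNP in edgeR. At an unadjusted p under 0.05 those fits held 866, 1076 and 1892 genes for SNP100, SNP50 and HMSNP, 3, 2 and 3 RGS genes, and 10, 9 and 24 pathway genes. DESeq2 called 496, 680 and 1945 genes for SNP100, SNP50 and HMSNP, with 6, 7 and 26 pathway genes, and 3 RGS genes for SNP100 and 3 for HMSNP. With filterByExpr 2 RGS genes were called for SNP100 and 2 for HMSNP, and 5 pathway genes for SNP100. Without a filter 2 RGS genes were called for SNP100, and 185 genes and 2 pathway genes for SNP50. The length offset called 296 and 502 genes for SNP100 and SNP50 and 2 RGS genes for HMSNP. With Control replicate 3 also left out, 1160, 3498, 2011 and 6900 genes were called for SNP100, SNP50, HMSNP and HMSNP versus MSNP, 11, 29 and 26 pathway genes for SNP100, SNP50 and HMSNP, and 2 and 3 RGS genes for SNP100 and HMSNP.

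Leaving out 1 library, genes called ranged from 57 to 1012 for SNP100, 87 to 3713 for SNP50, 3423 to 6522 for MSNP, 493 to 4940 for HMSNP and 3162 to 6644 for HMSNP versus MSNP. Pathway genes ranged from 1 to 11, 1 to 30, 44 to 67, 11 to 41 and 43 to 65 in this order. RGS genes ranged from 1 to 3 for SNP100, 0 to 2 for SNP50, 1 to 3 for HMSNP and 4 to 5 for HMSNP versus MSNP. The highest counts of all genes for SNP100, SNP50 and HMSNP versus MSNP came without Control replicate 3, and those for MSNP and HMSNP without Control replicate 2.

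Same-numbered libraries did not deviate together in every pair (correlations from -0.517 to 0.573). Differently numbered pairs were not compared, so these values do not settle whether the numbers pair the libraries. With the replicate block, SNP50 had 180 genes, 0 RGS genes and 2 pathway genes, and Rgs1 and Rgs16 had adjusted p of 0.0701 and 0.0611 there in edgeR. The block kept the other counts within 1.5 times.

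Sign changes occurred in changes that were not called, the largest of them Rgs10 with MSNP, at -0.27. For SNP100, Rgs2 was 0.0012 without a filter, 0.047 with the offset and 0.081 with the offset and without Control replicate 3, where Rgs10 was 0.058 and Rgs12 -0.12. Leaving out 1 library, Rgs2 ranged from -0.091 to 0.11, Rgs10 from -0.28 to 0.13 and Rgs12 from -0.14 to 0.23. For SNP50 with the offset and without Control replicate 3, Rgs2 was 0.0054, Rgs12 -0.051 and Rgs14 0.018, and leaving out 1 library Rgs2 ranged from -0.11 to 0.093, Rgs10 from -0.29 to 0.12 and Rgs12 from -0.11 to 0.25. For MSNP, Rgs12 was -0.00293 with 6 libraries, -0.084 with the offset and -0.22 with the offset and without Control replicate 3, where Rgs10 was 0.0066 and Rgs18 0.0503. Leaving out 1 library, Rgs10 ranged from -0.40 to 0.024, Rgs12 from -0.18 to 0.17 and Rgs18 from -0.47 to 0.081. For HMSNP, Rgs14 was -0.081 and Rgs19 0.067 with the offset, and Rgs19 was 0.0051 with the offset and without Control replicate 3. Leaving out 1 library, Rgs12 ranged from -0.38 to 0.0052 and Rgs14 from -0.024 to 0.075.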
